A study of Mus musculus with 4 samples.

Results

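The Wnt, Fgf and Bmp genes encode many of the secreted signals that pattern the early mouse embryo. Protein-coding gene models in the GENCODE M1 annotation of the mm9 genome were taken when their symbol was Wnt, Fgf or Bmp followed by a number, with or without a letter at the end. Receptors and binding proteins were not included, and the rule left out Fgf5 and Bmp15. It found 51 of 22367 protein-coding gene models, made up of 19 Wnt, 21 Fgf and 11 Bmp genes. The products of 2 of the 51 are not ligands. Bmp1 is a protease that cleaves procollagen and the Bmp antagonist chordin, and Bmp2k is a kinase. Counts are therefore also given for the other 49 genes, of which Fgf11, Fgf12, Fgf13 and Fgf14 encode Fgf proteins that stay inside the cell.

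Binding of KDM5C, also named SMCX, had been profiled with ChIP-Seq, in which chromatin is precipitated with an antibody and the DNA it carries is sequenced. The cells were epiblast-like cells (EpiLCs), labelled C57BL/6J and day 2, derived from male embryonic stem cells whose X chromosome carries a truncation of Tsix (XΔTsixY). That truncation was shared by the WT cells (wtSmcx), with intact Kdm5c, and the KO cells (koSmcx), in which the exons for the catalytic JmjC domain of Kdm5c were deleted and which are described as keeping a trace of mutant protein. The labels give each genotype 1 immunoprecipitated and 1 input sample, 4 samples in all, and each had 1 deposited peak list. By the peak names and the study's methods, the WT list was called on replicates that it pools, and the sources differ on whether the KO list came from 1 sample. EpiLCs were made in medium with FGF2 and Activin A, after a stage in inhibitors of GSK3 and MEK, which act on the Wnt and Fgf pathways. The sources differ on whether the cells were taken then or after 2 further days without FGF2 and Activin A. The lists held 6916 peaks for WT and 44 for KO on assembled chromosomes. They hold no reads, so depth, RNA levels and the loss of Kdm5c could not be read from them, and no value below has a replicate error.

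KDM5C removes di- and trimethylation from lysine 4 of histone H3, a mark of active promoters, and is known to bind many promoters rich in CpG dinucleotides. Wnt proteins bind Frizzled receptors and steady β-catenin or steer cell polarity, Fgf proteins activate receptor tyrosine kinases and the MAP kinase cascade, and Bmp proteins activate receptor kinases that phosphorylate Smads. In the epiblast, Bmp4 and Wnt3 signals start the primitive streak and the germ line, and Fgf4 and Fgf8 act in lineage choice and in the movement of cells at gastrulation.

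Promoter sequence is shown first for a pair of related genes, of which Wnt9b had a KDM5C peak and Wnt9a had none at its transcription start site (TSS), and for Bmp4, which had a peak at a CpG-poor promoter. Each sequence is the 120 bases directly before the gene's 5′ end in mm9, read on the strand of the gene, with CpG in capitals. Wnt9b lies on the minus strand (chr11:103611136-103611255), Wnt9a on the plus strand (chr11:59120310-59120429) and Bmp4 on the minus strand (chr14:47010345-47010464).
Wnt9b: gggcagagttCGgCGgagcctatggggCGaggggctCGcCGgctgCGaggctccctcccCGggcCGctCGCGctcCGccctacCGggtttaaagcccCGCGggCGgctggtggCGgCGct
Wnt9a: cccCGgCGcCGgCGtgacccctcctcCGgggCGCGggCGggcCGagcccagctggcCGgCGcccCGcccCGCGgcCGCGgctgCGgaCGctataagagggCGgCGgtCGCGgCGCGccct
Bmp4: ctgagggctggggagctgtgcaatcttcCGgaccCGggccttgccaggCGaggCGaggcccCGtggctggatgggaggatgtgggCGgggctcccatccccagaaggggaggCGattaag
Wnt9b held 17 CpG in these bases, Wnt9a 24 and Bmp4 7. All 120 bases of Wnt9b and of Bmp4 lay inside a WT peak, and 0 of those of Wnt9a did.

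A gene was called bound when the midpoint of a WT peak lay within 1 kb of the TSS of any of its annotated transcripts. KDM5C peaks lay at 18 of the 51 genes (35.3%, exact Clopper-Pearson 95% interval 22.4 to 49.9, which covers counting error only), against 24.0% of all 22367 protein-coding genes. The interval held the share of all genes. Of the 49 genes that encode ligands or intracellular Fgf proteins, 17 were bound (34.7%, 21.7 to 49.6). Each bound gene had 1 promoter peak. No KO peak lay at any member, and none of the 18 WT peaks overlapped a KO peak, as against 0.317% of all bound genes.

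The families differed in their counts. Among Bmp genes 7 of 11 were bound (63.6%, 30.8 to 89.1), among Fgf genes 6 of 21 (28.6%, 11.3 to 52.2) and among Wnt genes 5 of 19 (26.3%, 9.15 to 51.2). Without Bmp1 and Bmp2k, 6 of 9 Bmp genes were bound (66.7%, 29.9 to 92.5). The 3 intervals overlapped, and the difference between families was not tested.

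Peaks were ranked by their score, which is 10 times the −log10 of the q-value given by the peak caller. The median score of WT peaks was 82 and their 90th percentile 320. Bound members had a median score of 80.5 (quartiles 45 and 160), against 90 (53 and 177) over all bound genes. Scores of 7 bound Bmp genes had a median of 118, those of 5 Wnt genes 54 and those of 6 Fgf genes 50.5. Scores at or above the WT median were found at 6 of 7 bound Bmp genes, 2 of 6 bound Fgf genes and 1 of 5 bound Wnt genes. The share was 50.0% over all bound members and 54.1% over all bound genes. Only Wnt9b and Fgf20 reached the 90th percentile, 2 of 51 genes, against 2.79% of all genes.

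**Figure D1:**
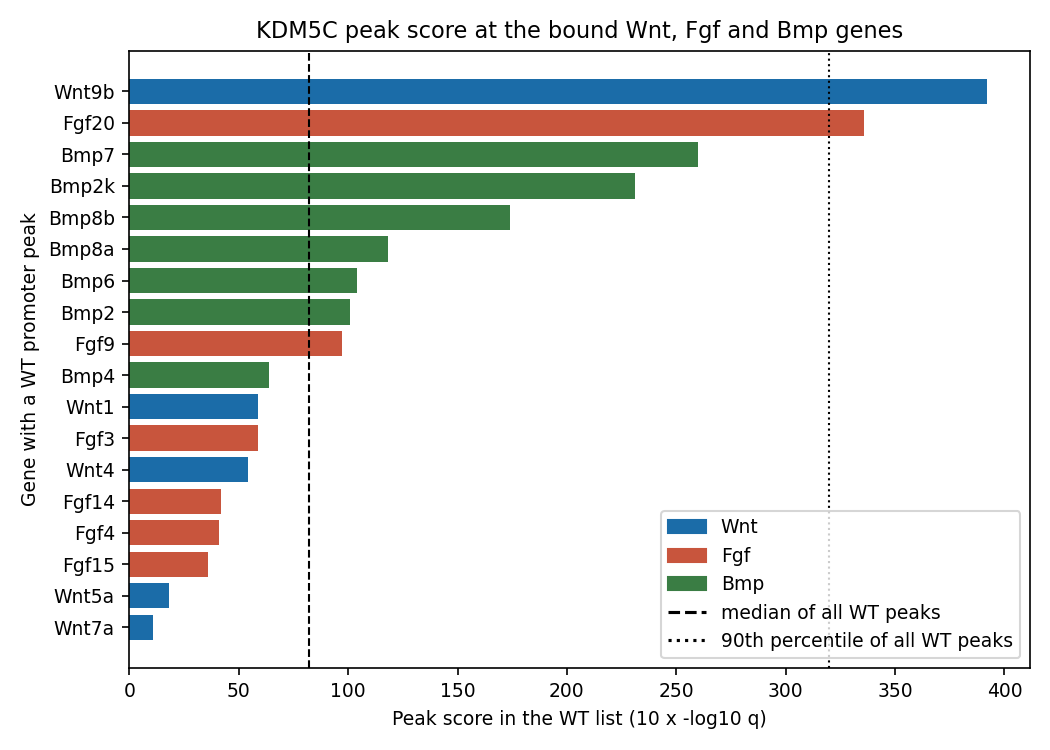
Score of the WT promoter peak (horizontal axis, 10 times −log10 q) at each of the 18 bound genes, coloured by family, with the median (82) and the 90th percentile (320) of all WT peaks as vertical lines. Wnt9b (392) and Fgf20 (336) pass the higher line, and Bmp4 (64) is the only bound Bmp gene below the median.

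Bmp ligands are described first. Bmp2 and Bmp4, closely related to each other and both needed for early mesoderm and heart, were each bound. The Bmp2 peak scored 101 with a fold enrichment over input of 4.77, and its midpoint lay 205 bp downstream of the TSS. The Bmp4 peak scored 64 (fold 3.37) and lay 63 bp upstream, over the CpG-poor promoter sequence printed above. Bmp4 was also the bound member with the lowest promoter CpG ratio, 0.443. Here the CpG ratio is the observed over the expected number of CpG in the 500 bp on either side of the gene's 5′ end.

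The group of Bmp5, Bmp6, Bmp7, Bmp8a and Bmp8b had a peak at 4 of its 5 members. At the bound share of other genes of like CpG ratio, 1.82 of the 5 would have been bound, and the difference was not tested. Bmp7, which acts in kidney and eye development, had the highest score of the Bmp family, 260 (fold 6.49, midpoint 96 bp upstream of a second annotated TSS). The Bmp8b peak scored 174 (fold 4.59) and spanned 1060 bp, with its midpoint 157 bp downstream. The Bmp8a peak scored 118 (fold 3.99) and lay 137 bp upstream of an alternative TSS. Bmp8b takes part with Bmp4 in the induction of primordial germ cells, and Bmp8a is its close copy. Reads that match both copies would not have been kept as uniquely mapped. The Bmp6 peak, at a gene best known for the control of iron through hepcidin, scored 104 (fold 3.70) and lay 261 bp downstream. Bmp5 was not bound, and its promoter had the lowest CpG ratio of the Bmp family, 0.264.

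Bmp3 and Bmp10, with promoter CpG ratios of 0.534 and 0.448, were not bound, and neither was the protease gene Bmp1 (0.778). The kinase gene Bmp2k had a score of 231 (fold 5.24) and a midpoint 386 bp upstream. Thus the unbound Bmp ligand genes had ratios under 0.6 and the bound ones, apart from Bmp4, had ratios of 0.626 or more.

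Of the 19 Wnt genes, Wnt9b stood apart. Wnt9b, a signal from the ureteric bud that induces kidney tubules, had a peak of score 392 (fold 7.15), above 92.6% of WT peaks, with its midpoint 139 bp downstream of the TSS and its summit in the first coding exon. The other 4 bound Wnt genes all scored below the WT median. Wnt4, which acts after Wnt9b in kidney tubules and in the female gonad, scored 54 (fold 3.63) with a midpoint 618 bp downstream, in an intron. Wnt5a, a Wnt of the β-catenin-independent branch, scored 18 (fold 2.37) at 92 bp upstream. Wnt7a, needed for the dorsal side of the limb, scored 11 (fold 2.18) at 513 bp upstream. The Wnt5a and Wnt7a peaks ranked above 2.54% and 0.289% of WT peaks, near the cutoff of the peak caller.

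Wnt1, which patterns the midbrain and hindbrain, was bound only through an alternative TSS. Its peak scored 59 (fold 3.18), lay 882 bp from that TSS and 2716 bp from the 5′ end of the gene, and had its summit in the last coding exon. It was the member just inside the 1 kb limit. The nearest member outside was Fgf8, with a peak midpoint 5478 bp from a TSS. The number of bound members was 18 at 5 kb as at 1 kb, while the share of all genes went from 24.0 to 27.0%.

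Unbound Wnt genes with a CpG-rich promoter were Wnt2 (ratio 0.625), Wnt2b (0.781), Wnt3 (0.617), Wnt3a (0.748), Wnt5b, Wnt6 (0.738), Wnt7b (0.789), Wnt9a, Wnt10b (0.628) and Wnt11 (0.818), 10 of the 14 Wnt genes of that class. CpG-rich means a ratio of at least 0.6 and a GC content of at least 50% over the same 1 kb. Wnt3 is the Wnt gene required to form the primitive streak, and its nearest peak midpoint was 24468 bp from its TSS. Wnt5b and Wnt9a had the highest promoter ratios of the Wnt family, 0.997 each, with no peak there. Wnt8a (0.254), Wnt8b (0.326), Wnt10a (0.394) and Wnt16 (0.351) were unbound and not CpG-rich.

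Several Wnt genes lie side by side in pairs that are conserved between vertebrates. Wnt9b was bound and its neighbour Wnt3 was not, although their 5′ ends are 24.3 kb apart. In the same way Wnt1 was bound and Wnt10b was not, with 11.7 kb between them. Neither Wnt6 nor Wnt10a was bound, and neither Wnt3a nor Wnt9a was. No pair had a promoter peak at both genes. At the bound share of other genes of like CpG ratio, few bound genes would be found in any pair. The numbers were 0.762 for Wnt3 and Wnt9b, 0.574 for Wnt1 and Wnt10b, 0.483 for Wnt6 and Wnt10a, and 0.929 for Wnt3a and Wnt9a. The pairs were not tested.

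The strongest Fgf peak was at Fgf20, a ligand of kidney progenitors and the inner ear, with a score of 336 (fold 7.66) and a width of 1207 bp. Its midpoint lay 244 bp downstream of the Fgf20 TSS. The peak cannot be assigned to Fgf20 alone, because its midpoint lay nearer to a TSS of Efha2, at 36 bp. Fgf9, of the same subfamily and needed for the testis and the lung, scored 97 (fold 3.31) at 81 bp from an alternative TSS that lay well inside the gene, 6041 bp from the 5′ end to the peak. The CpG ratio around that alternative TSS was 0.635, against 0.494 at the 5′ end. Fgf16, the third member of the subfamily, had no peak despite a ratio of 0.777.

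Fgf3, Fgf4 and Fgf15 lie together within 62.9 kb of chromosome 7, a stretch with no other protein-coding gene, and each was bound. Fgf4 is made by the epiblast and drives the primitive endoderm. Fgf3 acts in the inner ear, and Fgf15 is a gut hormone that curbs bile acid synthesis. The 3 peaks, counted with 5 kb on either side of the stretch, were the only ones there. Fgf3 scored 59 (fold 3.14, 433 bp downstream of an alternative TSS), Fgf4 41 (fold 2.74, 338 bp downstream) and Fgf15 36 (fold 2.68, 511 bp downstream). All 3 scores lay below the WT median. The midpoint of the Fgf15 peak lay nearer to a TSS of the gene model Gm17685, at 418 bp.

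Of the intracellular Fgf genes, whose products bind voltage-gated sodium channels, Fgf14 was bound and Fgf11, Fgf12 and Fgf13 (CpG ratios 0.462, 0.626 and 0.695) were not. Its peak scored 42 (fold 2.80) and lay in an intron, 720 bp from an alternative TSS and 484945 bp from the 5′ end of the gene. Among the endocrine genes Fgf21 and Fgf23 had no promoter peak, with ratios of 0.242 and 0.175. The FGF8 subfamily (Fgf8, Fgf17 and Fgf18) had 0 of 3 bound, with ratios of 0.789, 0.399 and 0.914. At the bound share of other genes of like CpG ratio, 0.997 of the 3 would have been bound. Fgf1 (0.239) and Fgf2 (0.676) were also unbound, as were Fgf6 (0.389), Fgf7 (0.379), Fgf10 (0.345) and Fgf22 (0.488). The X-linked members Fgf13 and Fgf16 had their nearest peak midpoints 5366496 bp and 164667 bp away.

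Promoter CpG content was then used to set the members beside like promoters. The median CpG ratio was 0.628 for the 51 genes and 0.549 for all genes. It was 0.778 for Bmp, 0.738 for Wnt and 0.494 for Fgf genes. Of 30 members with a CpG-rich promoter 13 were bound (43.3%), against 44.1% of all 9880 CpG-rich promoters. Of the 21 members without, 5 were bound (23.8%), against 8.05% of 12487. Those 5 were Wnt1, Fgf3, Fgf9, Fgf14 and Bmp4. In the first 4 of them the peak lay near a TSS other than the 5′ end at which the ratio was taken.

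Within the CpG-rich class the families parted. Bound were 6 of 7 Bmp genes, 3 of 9 Fgf genes and 4 of 14 Wnt genes. Bmp1 was the only unbound Bmp gene of the class, so that all 5 CpG-rich Bmp ligand genes had a peak. These counts are small and were not tested.

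**Figure D2:**
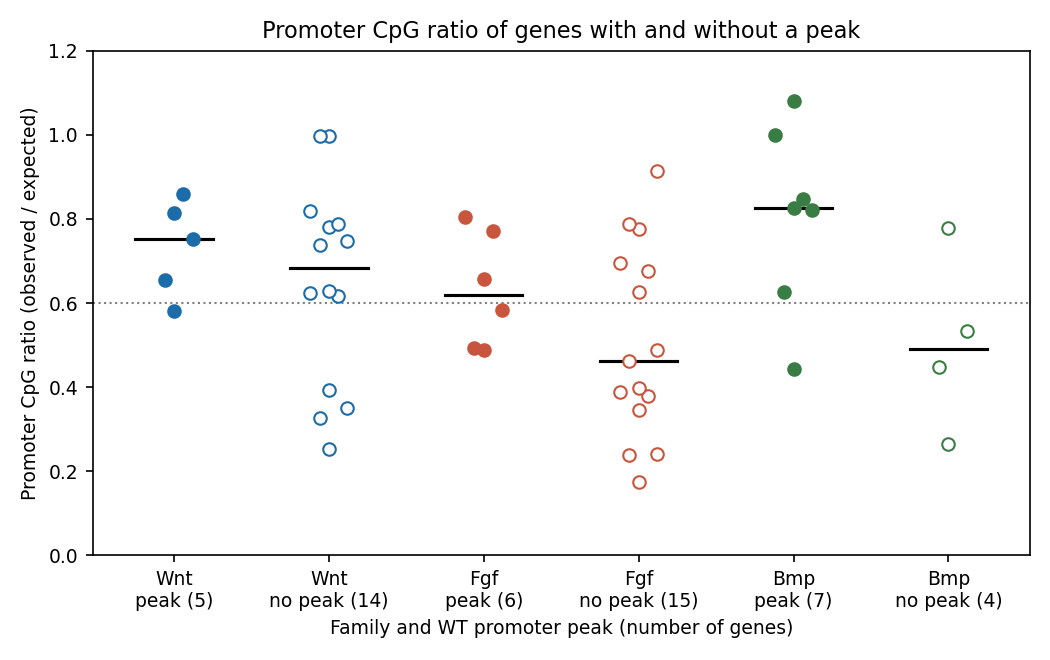
Promoter CpG ratio (vertical axis, observed over expected) of each gene, split by family and by whether it had a WT promoter peak (filled) or none (open), with the median of each column as a bar and the 0.6 limit as a dotted line. Wnt genes with and without a peak overlap, and the highest 2 Wnt ratios (0.997) belong to genes without a peak, whereas the highest Bmp ratios belong to bound genes.

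The bound share rose with CpG ratio across all other protein-coding genes, from 3.63% under a ratio of 0.4 through 18.6% and 38.4% to 49.6% at 0.8 and over. Members had 0 of 12 bound in the lowest of these 4 classes, 5 of 9 from 0.4 to 0.6, 5 of 18 from 0.6 to 0.8 and 8 of 12 at 0.8 and over. In the highest class 5 of 5 Bmp genes were bound, 2 of 5 Wnt genes and 1 of 2 Fgf genes. The members therefore did not follow the order of the classes at each step.

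**Figure D3:**
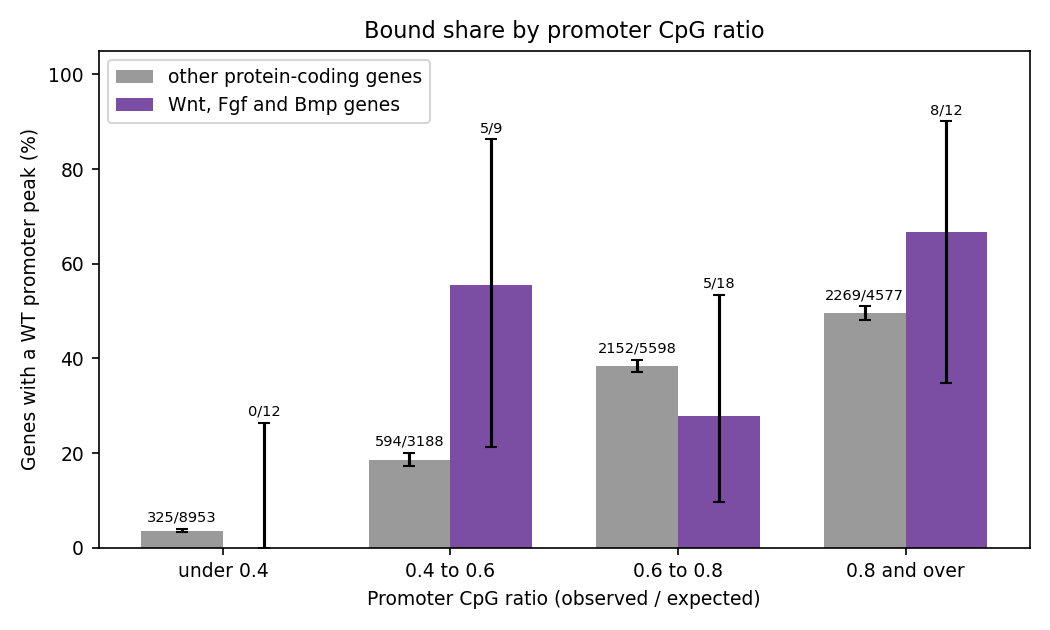
Percentage of genes with a WT promoter peak (vertical axis) by class of promoter CpG ratio (horizontal axis) for other protein-coding genes (grey) and the Wnt, Fgf and Bmp genes (purple), with exact 95% intervals and counts above the bars. The grey bars climb from 3.63 to 49.6%, and the purple ones go from 0 of 12 to 8 of 12 with a lower value, 5 of 18, in the class from 0.6 to 0.8.

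If each gene had been bound at the share of the other genes in its own bin of CpG ratio (bins 0.1 wide), 15.0 of the 51 would have been, against 18 observed. With a limit of 500 bp in place of 1 kb, 13 members were bound and the number from the bins was 13.7, so that the sign of the difference turned. By family this number was 3.82 for Bmp (7 observed), 4.79 for Fgf (6 observed) and 6.40 for Wnt (5 observed). Without Bmp1 and Bmp2k it was 2.89 for Bmp (6 observed). As a share of the family, the Bmp value from the bins was 34.7%, inside the 30.8 to 89.1 interval of the observed share. With the CpG ratio taken at the TSS of highest ratio, an alternative chosen after the data were seen, the numbers were 15.5 for all, 3.77 for Bmp, 5.40 for Fgf and 6.35 for Wnt.

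More annotated TSSs give a gene more chances to be called bound. Members with more than 1 TSS were bound in 12 of 31 cases and those with 1 TSS in 6 of 20, against 30.1% and 16.2% of all genes of each kind. At 6 bound members (Wnt1, Fgf3, Fgf9, Fgf14, Bmp7 and Bmp8a) the nearest TSS was not the 5′ end of the gene. When only 5′ ends were used, Wnt1, Fgf9 and Fgf14 were no longer bound and 15 members remained.

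The distance of peaks from the TSS depended on the point measured. The median distance from midpoint to TSS was 252.5 bp for 18 members and 157 bp for all bound genes, whereas that from summit to TSS was 168.5 bp and 176 bp. Members lay farther out by midpoint and not by summit. Midpoints within 500 bp were found at 13 of 18 members (72.2%), against 89.9% of all bound genes, and the TSS itself was covered at 10 of 18 (55.6%), against 70.8%. The Bmp peaks were the closest, with 7 of 7 within 500 bp and a median of 157 bp. Within 500 bp lay 4 of 6 Fgf peaks and 2 of 5 Wnt peaks. All 6 Fgf midpoints were downstream of the TSS, as were 3 of 5 Wnt and 3 of 7 Bmp midpoints. Together these were 12 of 18 members (66.7%), against 60.4% of all bound genes. Peaks at members had a median width of 499 bp and a median fold enrichment of 3.50, against 548 bp and 3.77.

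**Figure D4:**
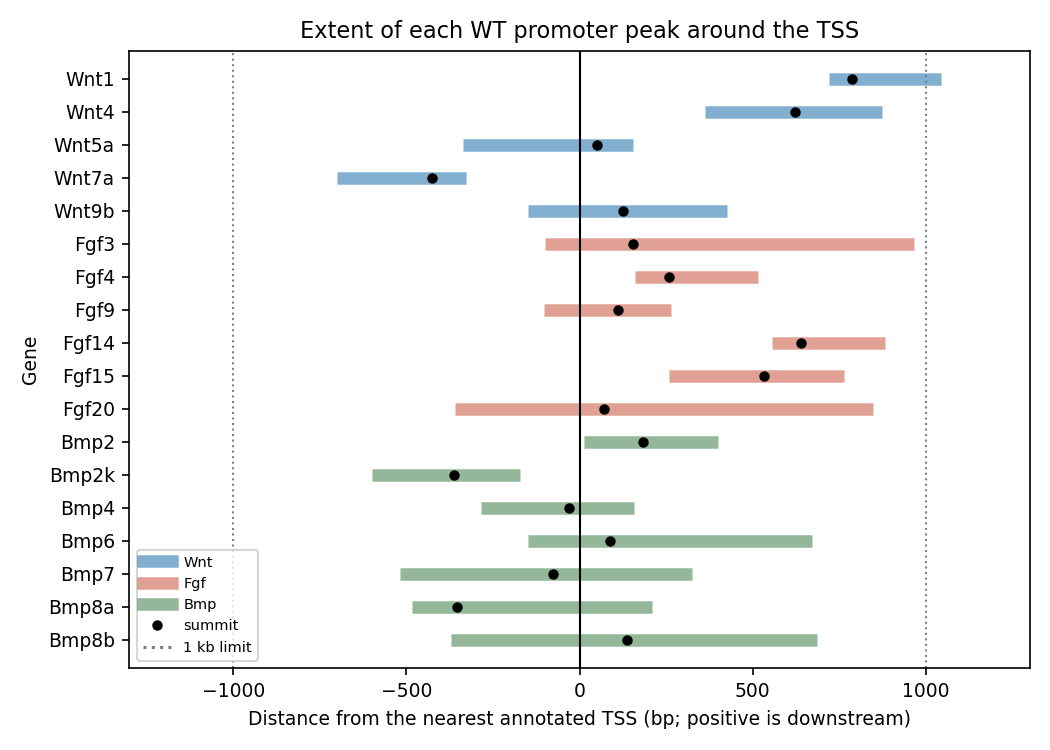
Extent of the WT promoter peak at each bound gene (bars coloured by family) along the distance from its nearest annotated TSS in bp (horizontal axis, positive is downstream), with the summit as a black point and the 1 kb limits dotted. The bars cover the TSS at 10 genes, lie wholly downstream of it at Wnt1, Wnt4, Fgf4, Fgf14, Fgf15 and Bmp2, and wholly upstream at Wnt7a and Bmp2k.

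A second kind of KDM5C peak was noticed after the promoter values had been seen, in genes whose promoter had none. Of the 33 unbound members 9 had a peak inside the gene (27.3%), against 3.82% of 17009 unbound genes. In 8 of the 33 the summit lay in a coding exon (24.2%, 11.1 to 42.3), against 1.92% of all unbound genes. They were 5 of 14 unbound Wnt genes, 3 of 15 unbound Fgf genes and 0 of 4 unbound Bmp genes. None of these peaks overlapped a KO peak. Unbound members were longer than unbound genes in general, with a median length of 20.8 kb against 12.8 kb.

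Sequence at 2 of these summits is shown, for Wnt8b beside its own promoter. The promoter sequence is again the 120 bases before the 5′ end of Wnt8b (plus strand, chr19:44567842-44567961), and the exon sequences are the 101 bases centred on the summit in Wnt8b (plus strand, chr19:44586174-44586274) and in Fgf8 (minus strand, chr19:45811564-45811664), with CpG in capitals and in mm9.
Wnt8b promoter: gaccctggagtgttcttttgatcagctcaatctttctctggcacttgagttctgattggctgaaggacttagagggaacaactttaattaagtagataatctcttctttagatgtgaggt
Wnt8b last coding exon: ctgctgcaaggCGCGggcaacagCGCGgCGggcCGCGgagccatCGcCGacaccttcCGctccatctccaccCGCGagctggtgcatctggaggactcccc
Fgf8 last coding exon: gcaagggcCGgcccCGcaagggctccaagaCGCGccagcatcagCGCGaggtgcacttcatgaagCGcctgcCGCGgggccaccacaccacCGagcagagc
The Wnt8b promoter held 0 CpG in 120 bases and its last coding exon 12 CpG in 101 bases. The Fgf8 exon held 10 CpG. Exon counts are over 101 bases and promoter counts over 120. The exon bases held more CpG than the promoter bases in Wnt8b, Wnt10a, Fgf17 and Fgf23, and the same number, 11, in Wnt6. They held fewer in Fgf8 (10 against 14), Wnt7b (6 against 18) and Wnt9a (6 against 24).

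The Fgf8 peak, in a gene that is needed for cells to leave the primitive streak, had the highest score of these, 220 (fold 4.94, above 83.0% of WT peaks). Wnt7b, a signal of the lung and placenta, followed with 147 and Wnt8b, expressed in the forebrain, with 92. Wnt6 (57), Wnt9a (53), Wnt10a (52), Fgf23 (46) and Fgf17 (32) lay below the WT median of 82. All 8 summits lay between 81.6 and 95.7% of the way along the gene, and 7 of the 8, all but that of Wnt9a, were in the last coding exon. The Fgf17 peak lay 617 bp from the TSS of a neighbour, Epb4.9, and the other 7 were more than 1 kb from any annotated TSS. The ninth peak, in Wnt5b (116), was in an intron, 817 bp from a TSS of Fbxl14.

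**Figure D5:**
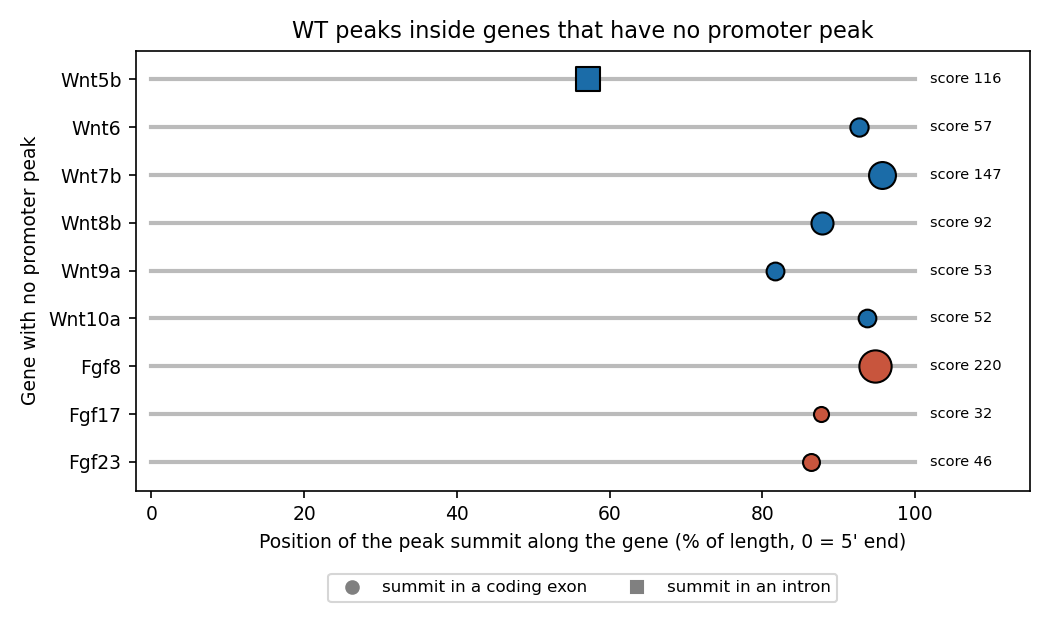
Position of the WT peak summit along the gene (horizontal axis, percent of its length from the 5′ end) in the 9 genes without a promoter peak that had a peak inside, with symbol area growing with the score written at the right. The 8 coding-exon summits (circles) sit between 81.6 and 95.7%, and the intron summit of Wnt5b (square) sits at 57.2%.

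The last coding exon was next examined in every gene. A WT summit lay in it in 8 of 51 members (15.7%), the 7 above and Wnt1, against 1.93% of all genes. Members more often had a CpG-rich last coding exon, by the same limits and with at least 200 bp, in 14 of 51 cases (27.5%) against 6.30% of all genes. Among those 14 exons 8 held a summit (57.1%), against 26.5% of 1409 such exons. CpG-rich last coding exons without a summit were those of Wnt3, Wnt3a, Wnt4, Wnt5a, Wnt10b and Fgf18. Of all 1638 WT peaks more than 1 kb from any TSS, 25.8% had their summit in a coding exon.

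Bound members had further peaks inside the gene in 4 cases. A peak in the first coding exon of Bmp4 scored 98, more than its promoter peak, and was 1585 bp from the closest TSS. Bmp8a and Bmp8b had intron peaks of score 147 and 289, which lay 474 bp and 129 bp from TSSs of Oxct2a and Gm17244. Fgf14 had an intron peak of score 49 with a CpG ratio of 0.153.

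Short sequence motifs were counted in the promoters, from 250 bases before to 50 after the 5′ end, on both strands. The GC box GGGCGG, bound by Sp factors, was present in 34 of 51 members (66.7%), against 43.4% of all promoters and 72.9% of CpG-rich ones. It was present in 15 of 18 bound members (83.3%), against 65.0% of all bound genes. The E-box CACGTG was present in 4 of 51 (7.84%), against 7.78% of all promoters and 11.2% of CpG-rich ones. It was present in 1 of 18 bound members (5.56%), against 13.7% of all bound genes. The E2F-like site TTCCCGC was present in 0 of 51, against 5.58% of all promoters, 9.91% of CpG-rich ones and 10.2% of all bound genes. In the 301 bp centred on the summits of promoter peaks, the GC box was present at 12 of 18 members (66.7%), against 59.9% of all promoter peaks. There the E-box was present at Wnt1, Fgf15, Bmp2k and Bmp7 (22.2%, against 19.2%), and the E2F-like site at 0 of 18, against 13.2%. Each motif holds a CpG itself, and an E2F-like site can share bases with a GC box on the other strand.

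Receptors, inhibitors, intracellular signalling genes and targets of the 3 pathways were taken from lists that hold 109 genes, of which 108 were matched. Bound were 20 of 52 Wnt pathway genes (38.5%), 8 of 25 Fgf pathway genes (32.0%) and 12 of 31 Bmp pathway genes (38.7%). The numbers from the CpG bins were 19.9, 9.69 and 13.2. Each count was thus within 2 genes of the number from the bins.

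Among Wnt receptors, 6 of 10 Frizzled genes were bound (4.57 from the CpG bins), and Fzd3 (score 782) and Fzd6 (678) were above every ligand gene. Fzd4 (279), Fzd9 (152), Fzd1 (59) and Fzd2 (35) were bound too. Of the 5 co-receptors Ror2 (171) and Lrp5 (109) were bound (2.42 from the bins) and Lrp6, Ror1 and Ryk were not. Secreted Wnt inhibitors were bound in 5 of 12 cases (3.19 from the bins), at Sfrp5 (230), Sfrp2 (207), Sfrp4 (146), Sfrp1 (122) and Notum (57). Their promoter CpG ratios were 0.665, 0.788, 0.503, 1.04 and 0.779. Dkk1, Dkk2, Dkk3 and Dkk4 were not bound, with ratios of 0.445, 0.479, 0.425 and 0.306. Frzb (0.605), Wif1 (0.682) and Sost (0.215) were not bound either. Of the R-spondins and their receptors 1 of 9 was bound (3.20 from the bins), the receptor gene Lgr5 (23). These role counts are small and were not tested.

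Of the Fgf receptors and co-receptors Fgfr1 (59), the co-receptor gene Kl (47) and Fgfr3 (21) were bound, 3 of 7 (2.89 from the bins), and Fgfr2 and Fgfr4 were not. Intracellular, feedback and target genes of the Fgf pathway were bound in 4 of 16 cases (6.55 from the bins). These were Etv4 (209), Spred1 (140), Spry1 (92) and Dusp6 (47). The intracellular genes Frs2, Frs3, Grb2 and Sos1, counted in the 16, were not bound. Of the Bmp receptors and co-receptors 4 of 10 were bound (4.45 from the bins). These were the co-receptor genes Rgmb (361) and Rgma (113), the decoy receptor gene Bambi (255) and the type II receptor gene Bmpr2 (53), whereas the type I receptor genes Bmpr1a, Bmpr1b and Acvr1 were not. Secreted Bmp modulators were bound in 4 of 11 cases (4.36 from the bins), including the antagonist genes Nog (49) and Grem1 (36), but not Chrd. Rgmb, Fzd3 and Fzd6 were the 3 pathway genes at or above the 90th percentile.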

How the data were processed

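The authors aligned single-end ChIP-Seq reads to mm9 with Bowtie (version 1.1.2 in the submitters' processing notes, while the paper's methods name a later one), kept uniquely mapped reads and called peaks against input with MACS2 2.1.0.20140616. Peak names and methods give replicates for the WT calls and 1 sample for KO, which can leave the KO list with less power. For each peak the authors deposited a score, its fold enrichment over input, p- and q-values as −log10, and a summit offset. The score was 10 times the −log10 q cut to a whole number in all 6916 rows checked. Cutoffs on q and fold set which weak peaks are listed.

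From these files, peak midpoints were assigned to TSSs of GENCODE M1 on NCBIM37, the assembly of mm9. Peaks on contigs were left out. Sequence came from NCBIM37, and coordinates count from 1. With 1 list per genotype no test was made. Intervals are exact Clopper-Pearson 95% and cover counting error only, and the depth is unknown.

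The members and pathway lists were chosen with earlier results of these data known. All bound members were named, unbound ones with their CpG ratio, and of the pathway lists the receptors and the genes at or above the 90th percentile of score. Further pathway genes, the subfamilies, the roles, the pairs, the other ligand families and the look at coding exons were chosen after values had been seen. Alternatives varied the distance, score limit, point of the peak, TSS, members, KO overlap and CpG window. Scripts were tested on simulated data. Python 3.11.15, NumPy 2.4.6, pandas 2.3.3, SciPy 1.17.1, pyfaidx 0.9.0.4 and matplotlib 3.10.9 were used. The sequence before a gene is not reported here.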

Additional observations from a re-analysis of the deposited data

How the results depend on the processing

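Of 88 alternative values for 11 results, 65 stayed within the limits set for no change and 23 moved. These values are counts, shares and scores, which have no sign to change. The limits were not alike for all results. A fall from 18 to 13 bound members stayed within them, but one from 24.0 to 21.8% of all genes did not. Within 5 kb the pathway shares were 51.9% (Wnt), 40.0% (Fgf) and 45.2% (Bmp), against 38.5, 32.0 and 38.7%, and also stayed within them. The difference between bound members and the number from the CpG bins was not among the 11 results, and its sign turned within 500 bp. Score limits moved most. At or above the WT median score, bound members were 9 (17.6%), with 1 Wnt and 2 Fgf genes, against 13.0% of all genes and 8.08 from the CpG bins, and the pathway shares were 23.1% (Wnt), 12.0% (Fgf) and 12.9% (Bmp). At or above the 90th percentile, bound members were 2 (3.92%), with 1 Wnt, 1 Fgf and 0 Bmp genes, against 2.79% of all genes and 1.72 from the bins, and the pathway shares were 3.85%, 0.0% and 3.23%. Within 500 bp, 13 members were bound, against 13.7 from the bins (18 and 15.0 at 1 kb), with 2 Wnt genes and 21.8% of all genes, within 5 kb 27.0% of all genes, and with 5′ ends only 22.0%. Apart from 5 kb, which admits more, these settings admit fewer peaks or TSSs by construction. The CpG ratio at the TSS of highest ratio, chosen after seeing the data, gave 15.5 and changed nothing.

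No paired analysis was possible because WT and KO had 1 peak list each, and no replicate was left out for that reason. A weak site missed at the depth of these libraries is not told apart from an unbound one, and scores near the cutoff, as at Wnt5a and Wnt7a, rest most on it. The KO list bears on antibody background and not on changes between genotypes.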

Other observations

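Other ligand families were looked up in a list written after the values of the Wnt, Fgf and Bmp genes had been seen. Of 39 such genes 11 had a KDM5C promoter peak (28.2%, exact 95% interval 15.0 to 44.9), and the number from the CpG bins was 10.5. Among other TGF-beta family ligands 6 of 23 were bound (4.59 from the bins), namely Lefty1, Lefty2, Gdf1, Gdf10, Tgfb1 and Inhbb. Nodal, the signal that sets up the body axes in the epiblast, was not bound. Lefty1 and Lefty2 encode antagonists of Nodal. Notch ligand genes were bound in 3 of 5 cases (1.91 from the bins), at Jag1, Jag2 and Dll3. Of the 3 Hedgehog genes (0.781 from the bins) Ihh was bound, with a score of 53, and Shh and Dhh were not. Of 8 ephrin genes 1 was bound (3.18 from the bins), Efna3, with a score of 165. None of these families was tested against another.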
